A study of Homo sapiens with 2 samples.

Results

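The 35 genes described here were 21 genes of glycolysis, 12 genes induced by hypoxia and the 2 genes of the oxygen-regulated HIF alpha subunits. They were chosen by symbol for their role in the pathway, with earlier results of these data known. All 35 were found among the 36601 gene rows of each matrix. The transcripts of single cells were sequenced in 2 lines of human prostate carcinoma. LNCaP_C4-2B is a castration-resistant strain derived in vivo from LNCaP, and LNCaP_FGC is the parental line. A rearrangement at the ETS factor gene ETV1 is shared by the strains. Both were grown to a steady state in RPMI1640 medium with 10% serum and antibiotic and received no other treatment. Neither was treated with low oxygen or with a HIF stabiliser, and the sources used here do not give the oxygen level in culture. Each line gave 1 library of 1850 cells, so every difference between the lines has no replicate check. The libraries also carry different batch labels, and strain and batch cannot be told apart.

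Glycolysis splits glucose into pyruvate in the cytosol. In cells that ferment, lactate dehydrogenase reduces pyruvate to lactate, which leaves through monocarboxylate transporters. When oxygen is low, prolyl hydroxylases no longer mark HIF1A and EPAS1 proteins for destruction, and these subunits pair with ARNT on DNA elements with the core letters ACGTG or GCGTG near glycolytic genes, angiogenic factors and genes of mitochondrial turnover. HIF alpha is regulated mainly through the stability of its protein, so its transcript level does not report its activity.

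Levels are given as CPM, UMI counts scaled to a common library total, where a UMI is 1 tagged transcript molecule. The libraries held 35149989 UMIs in LNCaP_C4-2B and 35150013 in LNCaP_FGC, since the authors thinned them to a common mean, and 3 UMIs, taken as the floor, correspond to 0.0853 CPM in either. Median UMIs per cell were 17566.5 in LNCaP_C4-2B and 18292 in LNCaP_FGC, and no cell barcode was shared. Luminal prostate markers summed to 5218 CPM in LNCaP_C4-2B and 2968 CPM in LNCaP_FGC, with none of 9 at 0. Markers of basal, fibroblast, immune, endothelial and erythroid cells each summed to at most 0.910 CPM in LNCaP_C4-2B and at most 5.06 CPM in LNCaP_FGC. Mitochondrial transcripts took 8.35% of UMIs in LNCaP_C4-2B and 6.27% in LNCaP_FGC, ribosomal protein transcripts 28.2% in LNCaP_C4-2B and 23.2% in LNCaP_FGC, and their part in the ratios below was not tested beyond the rescaling given there. All intervals are 95% intervals that cover counting error only.

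The first comparison asked how the pathway differed between the castration-resistant strain and its parental line. Together the 35 genes took 1.35% of all UMIs in LNCaP_C4-2B and 0.67% in LNCaP_FGC. The 21 glycolysis genes summed to 11610 CPM in LNCaP_C4-2B, against 5994 CPM in LNCaP_FGC, a 1.94-fold higher level. GAPDH alone gave 4722 CPM of this sum in LNCaP_C4-2B and 2449 CPM in LNCaP_FGC. The 12 hypoxia-induced genes summed to 1785 CPM in LNCaP_C4-2B and 608 CPM in LNCaP_FGC, a 2.94-fold higher level. The 2 HIF alpha genes did not share this direction, with a sum of 71.5 CPM in LNCaP_C4-2B and 103 CPM in LNCaP_FGC.

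The median gene, taken over the 12764 that had 100 or more UMIs in total, stood at -0.43 when CPM in LNCaP_C4-2B was divided by CPM in LNCaP_FGC and put on the log2 scale. A gene is called higher or lower here when it departed from the median gene by 1.5-fold or more, a fixed size that stands in for a test. Of the 35 genes, 31 had at least 100 UMIs, and 24 of these were higher in LNCaP_C4-2B, against 22.8% of all 12764 genes. None of the 31 was lower, against 22.3% of all genes. Among glycolysis genes 15 of 20 were higher with a median log2 ratio of 1.02 relative to the median gene, and among hypoxia-induced genes 9 of 10 with a median of 1.76. On the plain CPM scale these medians were 0.60 and 1.33, and 7 of the 24 genes, HK1, GPI, ALDOA, LDHB, SLC16A1, EGLN1 and EGLN3, came within 1.5-fold, while SLC2A1 and PFKL were past 1.5-fold lower. TMM and median-of-ratios factors moved the median gene to 0.06 and 0.04, and under them all 31 genes stayed on the same side of the 1.5-fold limit.

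**Figure D1:**
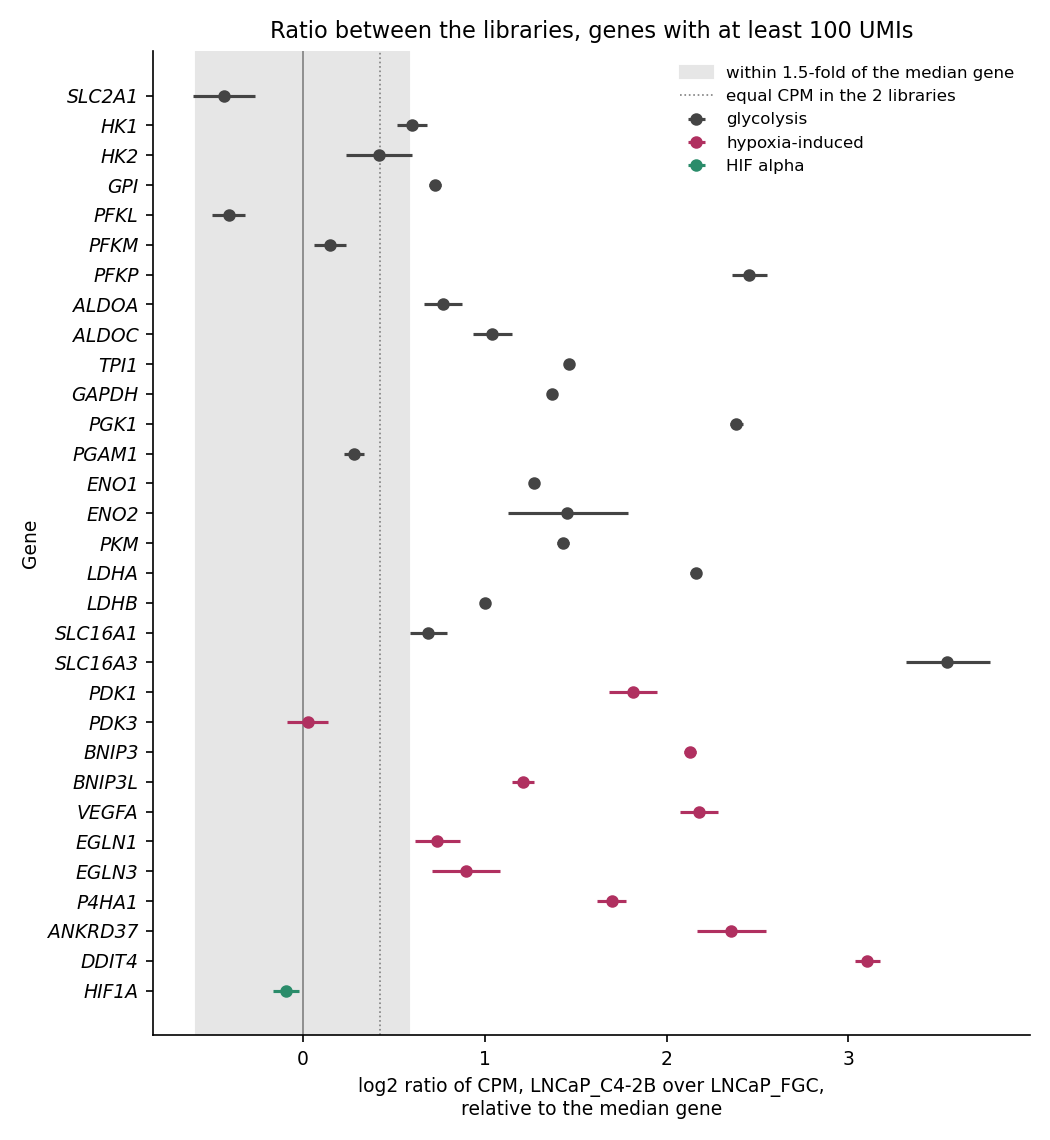
CPM in LNCaP_C4-2B over CPM in LNCaP_FGC on the log2 scale, relative to the median gene (x axis), for the 31 genes with at least 100 UMIs (y axis, in pathway order), with exact 95% counting intervals as bars. The gray band is within 1.5-fold of the median gene and the dotted line marks equal CPM. SLC16A3 at 3.54 and DDIT4 at 3.10 lie farthest to the right, and SLC2A1 at -0.43 and PFKL at -0.41 lie farthest to the left.

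Glucose entry and its first phosphorylation did not share the increase. SLC2A1, the main basal glucose transporter, stood at 12.7 CPM in LNCaP_C4-2B, against 23.0 CPM in LNCaP_FGC, 1.81-fold lower by CPM (1.61 to 2.04). SLC2A3, the high-affinity transporter of neurons, had 10 UMIs in each library, too few for a comparison. Hexokinase traps glucose in the cell as its phosphate, and the widely expressed HK1 was at 68.6 CPM in LNCaP_C4-2B and 60.8 CPM in LNCaP_FGC. The inducible HK2 was at 14.3 CPM in both, a ratio of 0.998 (0.880 to 1.13). Of these genes HK1 alone passed the 1.5-fold limit over the median gene, at 1.52-fold, and it fell short when cells were thinned to one depth or when CPM was averaged per cell. GPI, the isomerase that makes fructose 6-phosphate, was 1.23-fold higher by CPM, at 436 CPM in LNCaP_C4-2B and 353 CPM in LNCaP_FGC, a level that is uncertain because ENSG00000266953, annotated on the same strand, covers its 3′ end.

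At phosphofructokinase, the committed step, the isoenzymes moved apart. PFKP, the platelet form, stood at 130 CPM in LNCaP_C4-2B and 31.8 CPM in LNCaP_FGC, 4.08-fold higher (3.82 to 4.36). PFKL, the liver form, was at 43.2 CPM in LNCaP_C4-2B and 76.9 CPM in LNCaP_FGC, 1.78-fold lower by CPM (1.67 to 1.90). PFKM, the muscle form, was at 56.9 CPM in LNCaP_C4-2B and 68.9 CPM in LNCaP_FGC. The sum of the 3 differed less than its parts, at 230 CPM in LNCaP_C4-2B and 178 CPM in LNCaP_FGC, 1.30-fold higher. PFKP took 56.5% of the UMIs of the step in LNCaP_C4-2B (55.4 to 57.6), against 17.9% in LNCaP_FGC (17.0 to 18.9), whereas PFKL took 18.8% in LNCaP_C4-2B and 43.3% in LNCaP_FGC. A PFKP UMI was found in 85.8% of LNCaP_C4-2B cells and in 43.1% of LNCaP_FGC cells, and no cell type that lacks these genes was in the libraries to give a background share.

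**Figure D2:**
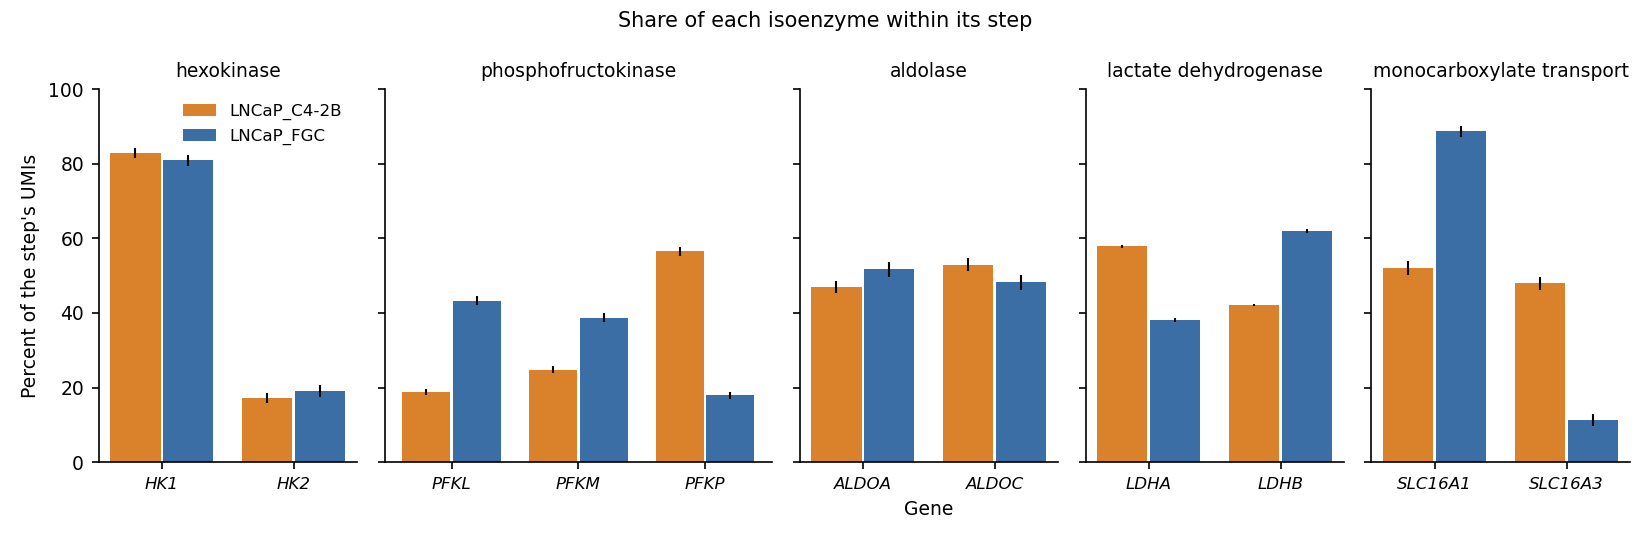
Percent of the UMIs of a step taken by each isoenzyme (y axis), for 5 steps with more than 1 measured gene, in LNCaP_C4-2B (orange, left bar) and LNCaP_FGC (blue, right bar), with exact binomial 95% intervals. PFKP, LDHA and SLC16A3 take 56.5%, 57.9% and 47.9% in LNCaP_C4-2B, against 17.9%, 38.1% and 11.3% in LNCaP_FGC, while the hexokinase shares lie close together.

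The next steps cleave and rearrange the sugar. Aldolase cuts fructose 1,6-bisphosphate, and its ubiquitous form ALDOA was at 47.1 CPM in LNCaP_C4-2B and 37.0 CPM in LNCaP_FGC. Its brain form ALDOC was at 53.0 CPM in LNCaP_C4-2B and 34.5 CPM in LNCaP_FGC, 1.53-fold higher (1.43 to 1.65). The levels of both are uncertain, since longer genes annotated on the same strand, ENSG00000285043 over nearly all of ALDOA and RSKR over ALDOC, share their positions and reads that fit both genes of a pair could not be told apart. TPI1, which interconverts the triose phosphates, stood at 1079 CPM in LNCaP_C4-2B and 524 CPM in LNCaP_FGC, 2.06-fold higher (2.02 to 2.09).

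The payoff steps of lower glycolysis were higher in LNCaP_C4-2B with a single exception. GAPDH, which makes NADH, stood at 4722 CPM in LNCaP_C4-2B and 2449 CPM in LNCaP_FGC, 1.93-fold higher (1.91 to 1.94). PGK1, which makes the first ATP of the pathway, stood at 977 CPM in LNCaP_C4-2B and 251 CPM in LNCaP_FGC, 3.89-fold higher (3.80 to 3.98). The exception was the mutase PGAM1, which stands between PGK1 and enolase, at 155 CPM in LNCaP_C4-2B and 172 CPM in LNCaP_FGC, within 1.5-fold of the median gene. The enolase ENO1 was at 1253 CPM in LNCaP_C4-2B and 696.5 CPM in LNCaP_FGC, 1.80-fold higher, and took 99.5% of enolase UMIs in either library. The neuronal enolase ENO2 rested on 239 UMIs in LNCaP_C4-2B and 117 in LNCaP_FGC, 2.04-fold higher (1.63 to 2.57). Pyruvate kinase PKM, whose splice forms are not separated by these counts, was at 695 CPM in LNCaP_C4-2B and 346 CPM in LNCaP_FGC, 2.01-fold higher. GAPDH is a common reference transcript for normalization, and it differed 1.93-fold by CPM here.

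The conversion of pyruvate to lactate and its export showed the second change of isoenzymes. LDHA, the subunit named for muscle, stood at 1024 CPM in LNCaP_C4-2B and 308 CPM in LNCaP_FGC, 3.33-fold higher (3.26 to 3.40). LDHB, the subunit named for heart, was at 746 CPM in LNCaP_C4-2B and 500 CPM in LNCaP_FGC, 1.49-fold higher (1.46 to 1.52). LDHA took 57.9% of the UMIs of both in LNCaP_C4-2B (57.5 to 58.3) and 38.1% in LNCaP_FGC (37.5 to 38.7), so that the more abundant transcript was LDHA in LNCaP_C4-2B and LDHB in LNCaP_FGC. An annotated gene on the same strand covers the end of LDHB where the tags lie, which makes its level and this share uncertain. SLC16A3, which encodes the lactate exporter MCT4, had 1529 UMIs in LNCaP_C4-2B and 176 in LNCaP_FGC. It stood at 43.5 CPM in LNCaP_C4-2B and 5.01 CPM in LNCaP_FGC, 8.69-fold higher (7.43 to 10.2), the largest ratio of the 31 genes. SLC16A1, which encodes the widely expressed MCT1, was at 47.2 CPM in LNCaP_C4-2B and 39.3 CPM in LNCaP_FGC. SLC16A3 thus took 47.9% of the UMIs of both transporters in LNCaP_C4-2B and 11.3% in LNCaP_FGC, and a UMI of it was found in 50.1% of LNCaP_C4-2B cells and in 8.11% of LNCaP_FGC cells.

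**Figure D3:**
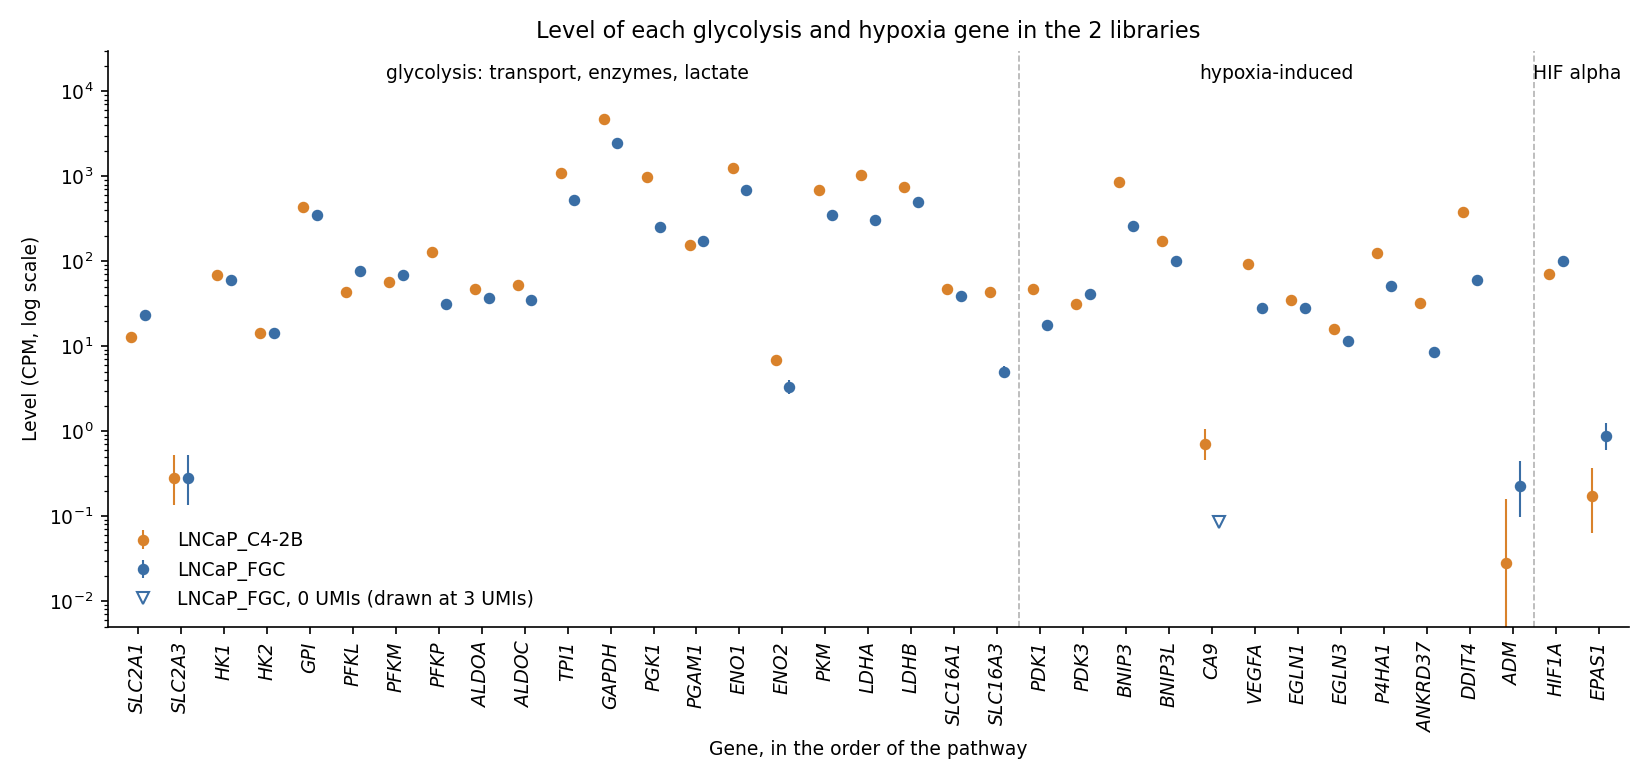
Level of each of the 35 genes in CPM (y axis, log scale) in LNCaP_C4-2B (orange) and LNCaP_FGC (blue), in pathway order (x axis), with exact Poisson 95% intervals as bars. Dashed lines separate glycolysis, hypoxia-induced and HIF alpha genes. The triangle marks CA9 in LNCaP_FGC, which had 0 UMIs and is drawn at 0.0853 CPM.

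Of the genes that hypoxia induces outside glycolysis, DDIT4 had the largest ratio. DDIT4 encodes REDD1, an inhibitor of mTORC1 that other stresses induce as well, and it stood at 381 CPM in LNCaP_C4-2B and 59.5 CPM in LNCaP_FGC, 6.40-fold higher (6.12 to 6.71). At least 5 UMIs of DDIT4 were present in 55.2% of LNCaP_C4-2B cells and in 3.78% of LNCaP_FGC cells. ANKRD37, an ankyrin repeat gene and HIF target, was at 32.2 CPM in LNCaP_C4-2B and 8.45 CPM in LNCaP_FGC, 3.81-fold higher (3.35 to 4.35). The angiogenic ligand VEGFA was at 93.9 CPM in LNCaP_C4-2B and 27.8 CPM in LNCaP_FGC, 3.38-fold higher (3.14 to 3.63). Both genes of BNIP3 type, mitophagy receptors of the outer mitochondrial membrane, were higher. BNIP3 was at 849 CPM in LNCaP_C4-2B and 261 CPM in LNCaP_FGC, 3.26-fold higher (3.18 to 3.33), and BNIP3L at 174 CPM in LNCaP_C4-2B and 101 CPM in LNCaP_FGC, 1.73-fold higher (1.66 to 1.80).

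Enzymes of the same group split by gene. PDK1, a kinase that shuts off pyruvate dehydrogenase, was at 47.0 CPM in LNCaP_C4-2B and 18.0 CPM in LNCaP_FGC, 2.62-fold higher (2.39 to 2.88). Its relative PDK3 was at 31.1 CPM in LNCaP_C4-2B and 41.0 CPM in LNCaP_FGC, 0.03 from the median gene on the log2 scale, and was the only measured hypoxia-induced gene within 1.5-fold. P4HA1, a collagen prolyl hydroxylase, was at 125 CPM in LNCaP_C4-2B and 51.6 CPM in LNCaP_FGC, 2.42-fold higher (2.29 to 2.56). The HIF prolyl hydroxylases, which are themselves HIF targets, had the smallest ratios of the 9 higher genes. EGLN1 was at 35.4 CPM in LNCaP_C4-2B and 28.5 CPM in LNCaP_FGC, and EGLN3 at 16.0 CPM in LNCaP_C4-2B and 11.6 CPM in LNCaP_FGC. EGLN1 shares its strand with an annotated gene that covers it, and its level is uncertain for that reason.

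CA9, ADM and EPAS1 each had fewer than 100 UMIs in total. CA9, a carbonic anhydrase that is among the most hypoxia-specific HIF1A targets in many tumors, had 25 UMIs in 20 LNCaP_C4-2B cells and 0 in LNCaP_FGC. Against the floor of 3 UMIs in the library it was 8.33-fold higher, while the exact counting interval of its ratio began lower, at 6.29. A count of 0, read as at most 3 of 1850 cells, allows a share of up to 0.162% of LNCaP_FGC cells with a UMI. ADM, the vasodilator adrenomedullin, went the other way with 1 UMI in LNCaP_C4-2B and 8 in LNCaP_FGC, 8.00-fold lower with a counting interval of 1.07 to 355. EPAS1, which encodes HIF-2 alpha, had 6 UMIs in LNCaP_C4-2B and 31 in LNCaP_FGC, 5.17-fold lower (2.12 to 15.1). HIF1A was well measured, at 71.3 CPM in LNCaP_C4-2B and 102 CPM in LNCaP_FGC, 1.43-fold lower by CPM (1.36 to 1.51) and -0.09 from the median gene on the log2 scale.

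Other genes of the pathway were taken from lists named by function, and their counts stand against 22.8% of all genes higher and 22.3% lower. Of 29 further glycolysis genes 14 had at least 100 UMIs, and 4 were higher and 5 lower with a median log2 ratio of -0.21 relative to the median gene. Among them BPGM, which makes 2,3-bisphosphoglycerate, was 1.46-fold higher, and PFKFB3, which makes the activator of phosphofructokinase, was at 7.65 CPM in LNCaP_C4-2B and 30.2 CPM in LNCaP_FGC, 3.95-fold lower (3.45 to 4.53). TIGAR, which opposes PFKFB3, was 2.41-fold lower. Of 11 genes for entry of pyruvate into mitochondria 10 were measured and 8 lay within 1.5-fold, with PDHA1, a subunit of pyruvate dehydrogenase, 1.41-fold higher and the phosphatase PDP2 2.63-fold lower. The 19 genes of branches off glycolysis were all measured, and 9 were higher and 4 lower, with a median of 0.58. The glycogen phosphorylase PYGL was 3.80-fold, the first enzyme of serine synthesis PHGDH 2.58-fold and the pentose phosphate enzyme TKT 2.12-fold higher, whereas the pentose phosphate enzyme PGD was 2.47-fold and the phosphoglucomutase PGM2 3.57-fold lower.

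A longer list of 42 HIF targets had 38 measured genes, of which 20 were higher and 4 lower, against 22.8% and 22.3% of all genes, with a median of 0.74 against 1.76 for the 10 measured hypoxia-induced genes described above. AKAP12, a kinase anchoring protein, was at 20.3 CPM in LNCaP_C4-2B and 3.39 CPM in LNCaP_FGC, 5.99-fold higher (4.93 to 7.34). SAP30 was 2.70-fold, the oxidoreductase ERO1A 2.44-fold and the lipid droplet gene HILPDA 1.96-fold higher. The transferrin receptor TFRC was at 57.2 CPM in LNCaP_C4-2B and 232 CPM in LNCaP_FGC, 4.06-fold lower (3.87 to 4.27), and the carbonic anhydrase CA12 was 2.63-fold lower. Of 12 HIF regulators 11 were measured and 8 lay within 1.5-fold. VHL, which targets HIF alpha for destruction, was at 29.2 CPM in LNCaP_C4-2B and 43.1 CPM in LNCaP_FGC, and ARNT, the partner of HIF alpha, at 14.1 CPM in LNCaP_C4-2B and 22.7 CPM in LNCaP_FGC, both within 1.5-fold of the median gene. CITED2, which competes with HIF alpha for its coactivators, was 3.07-fold lower (2.76 to 3.43).

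The genes lie on many chromosomes, and their ratios were set beside those of their neighbors to see whether a region moved as a whole. The 24 higher genes lie on 14 chromosomes. For 12 of them none of the 20 nearest measured genes had a ratio as high. The rest had such neighbors, up to 4 of 20 for ALDOA and SLC16A1. PGK1, on the long arm of chromosome X, had 2.38 relative to the median gene on the log2 scale, while its 20 nearest measured genes had a median of -0.60. PFKP on chromosome 10 had 2.45 and its neighbors a median of -0.23. GAPDH, TPI1 and ENO2 lie close together on chromosome 12 and had 1.37, 1.47 and 1.46, while the medians of their neighbors, which include one another, were 0.01, 0.24 and 0.14. The 20 neighbors of SLC16A3 on chromosome 17 had the highest median found around any of the measured genes, 0.64, against 3.54 for SLC16A3 itself. SLC2A1 was the reverse case, with -0.43 against a neighbor median of 0.37, and 19 of its 20 neighbors had a higher ratio.

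The promoters of the genes with the closest cell-to-cell relation (PGK1, BNIP3, LDHA and ENO1, described below) are shown with that of SLC16A3, the gene of the largest ratio, because the HIF core letters differ among them. The windows run from 250 bases before to 50 after the start in RefSeq (GRCh38.p14), on the coding strand, with ACGTG or its reverse complement CACGT in capitals. They lie at chrX:78103998-78104297 (PGK1, plus strand), chr10:131981874-131982173 (BNIP3, minus strand), chr11:18394313-18394612 (LDHA, plus strand), chr1:8878637-8878936 (ENO1, minus strand) and chr17:82228185-82228484 (SLC16A3, plus strand).
PGK1: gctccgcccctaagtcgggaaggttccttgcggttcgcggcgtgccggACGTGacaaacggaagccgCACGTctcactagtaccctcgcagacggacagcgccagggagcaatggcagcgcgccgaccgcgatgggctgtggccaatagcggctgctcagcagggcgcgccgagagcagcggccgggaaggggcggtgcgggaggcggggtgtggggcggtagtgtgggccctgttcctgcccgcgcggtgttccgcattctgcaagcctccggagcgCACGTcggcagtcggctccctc
BNIP3: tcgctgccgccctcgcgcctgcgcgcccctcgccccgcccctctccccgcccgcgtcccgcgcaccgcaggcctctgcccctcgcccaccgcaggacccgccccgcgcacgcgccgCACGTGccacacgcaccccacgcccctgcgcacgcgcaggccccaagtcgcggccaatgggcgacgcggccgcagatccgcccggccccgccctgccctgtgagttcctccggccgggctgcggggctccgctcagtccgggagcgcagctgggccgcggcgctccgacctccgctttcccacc
LDHA: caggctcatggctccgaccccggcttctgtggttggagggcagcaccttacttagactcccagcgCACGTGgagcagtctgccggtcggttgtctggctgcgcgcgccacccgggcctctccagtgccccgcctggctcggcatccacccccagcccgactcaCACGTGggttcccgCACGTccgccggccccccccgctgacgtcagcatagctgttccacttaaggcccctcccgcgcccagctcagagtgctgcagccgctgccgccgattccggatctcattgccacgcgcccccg
ENO1: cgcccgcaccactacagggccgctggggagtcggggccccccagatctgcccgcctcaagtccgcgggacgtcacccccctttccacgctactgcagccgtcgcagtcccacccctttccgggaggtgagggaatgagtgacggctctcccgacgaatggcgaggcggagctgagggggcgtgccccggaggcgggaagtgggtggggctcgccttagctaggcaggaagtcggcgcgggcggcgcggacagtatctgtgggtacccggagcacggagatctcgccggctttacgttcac
SLC16A3: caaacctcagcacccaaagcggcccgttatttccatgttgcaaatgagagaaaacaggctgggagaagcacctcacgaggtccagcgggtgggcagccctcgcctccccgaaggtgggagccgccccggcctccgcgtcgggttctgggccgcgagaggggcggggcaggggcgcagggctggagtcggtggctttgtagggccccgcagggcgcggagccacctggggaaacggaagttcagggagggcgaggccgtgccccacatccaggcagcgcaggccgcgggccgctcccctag

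PGK1 held the letters at 3 places, which begin -202, -183 and 28 bases from the start, and LDHA at -185, -87 and -73. The first 2 places in LDHA and the place at -134 in BNIP3 read CACGTG, which is its own reverse complement and counts as a match on each strand. The ENO1 window held GCGTG but not ACGTG, and the SLC16A3 window held neither. Only the window at the RefSeq start used for each gene was searched, and other starts were not examined. The SLC16A3 window begins at 82228185, inside the gene, which starts at 82217934 in the GENCODE positions. The PFKP window begins at 3067720, against a gene start of 3066333. The PGK1 window, which held the letters, also lies inside its gene, at 78103998 against 77910739. Of the 35 genes, 31 had a promoter in the RefSeq table, and ACGTG on either strand was found in 8 of 19 glycolysis genes (42.1%), 7 of 10 hypoxia-induced genes (70.0%) and neither HIF alpha gene. The letters occurred in 21.6% of all 27305 promoters of that length and in 27.8% of the 9493 promoters of measured genes. GCGTG was found in 15 of the 31 promoters (48.4%), 36.3% of all promoters and 52.3% of those of measured genes. A match, or the lack of one, describes the letters in the window only and not at other starts of a gene. The windows of ALDOC, GAPDH, HK2 and ANKRD37 also held ACGTG more than once by this count, while those of TPI1, PFKP, PKM and PDK1 held none.

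The second comparison asked whether the genes varied from cell to cell within a line. Each cell was thinned at random to 10000 UMIs, which left out 21 LNCaP_C4-2B cells and 73 LNCaP_FGC cells with fewer, and the UMIs of the glycolysis genes and of the hypoxia-induced genes were summed per cell. The glycolysis sum had a median of 107 in 1829 LNCaP_C4-2B cells, with percentiles 10 and 90 of 77 and 175 and a maximum of 394, against a median of 59 in 1777 LNCaP_FGC cells, with percentiles of 44 and 76 and a maximum of 108. The hypoxia-induced sum had a median of 16 in LNCaP_C4-2B (percentiles 7 and 33, maximum 114) and 6 in LNCaP_FGC (percentiles 3 and 10, maximum 19). The difference in the glycolysis sum thus ran through nearly the whole population, since 90.5% of LNCaP_C4-2B cells lay above the percentile 90 of LNCaP_FGC. For the hypoxia-induced sum this share was 74.0%. GAPDH alone gave a mean of 48.2 of the 118.5 UMIs of the glycolysis sum in LNCaP_C4-2B, and 24.2 of 59.5 in LNCaP_FGC. The glycolysis sum therefore says little of weakly expressed genes such as SLC2A1 and PFKP, which moved in opposite directions by CPM. In addition, LNCaP_C4-2B had a long upper tail, with 36.6% of its cells above the highest LNCaP_FGC cell for the hypoxia-induced sum.

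The spread was wider than counting error in LNCaP_C4-2B for a particular set of genes. Variance over mean, which is 1 for counting error alone, was 17.4 for the glycolysis sum in LNCaP_C4-2B and 2.62 in LNCaP_FGC, and 7.84 for the hypoxia-induced sum in LNCaP_C4-2B and 1.24 in LNCaP_FGC. By gene it was highest in LNCaP_C4-2B for GAPDH (10.4), PGK1 (7.79), BNIP3 (5.71) and ENO1 (4.34). The same genes had 1.85, 1.08, 1.14 and 1.33 in LNCaP_FGC. Where cells differ, variance over mean also rises with the level, so it does not rank genes, sums or lines of unlike level. Mean UMIs per cell of GAPDH, PGK1, BNIP3 and ENO1 were 48.2, 10.3, 8.92 and 13.0 in LNCaP_C4-2B. In LNCaP_FGC they were 24.2, 2.53, 2.65 and 6.95. TPI1, at a mean of 10.8 near that of PGK1, had 1.79 in LNCaP_C4-2B, so enzymes of the same pathway did not spread alike. PKM had 1.51 at a mean of 6.98, and PGAM1 1.18 at a mean of 1.57. Over all LNCaP_C4-2B genes with a mean of at least 0.5 UMI the median was 1.10 and the percentile 75 was 1.22. TPI1, PKM and PGAM1 had 1.31, 1.21 and 1.10 in LNCaP_FGC. HIF1A stood at 1.02 in LNCaP_C4-2B and 1.07 in LNCaP_FGC. ANKRD37 had its transcripts in few cells, since 32 LNCaP_C4-2B cells with at least 5 UMIs before thinning held 24.3% of them, with up to 25 in a cell, and no LNCaP_FGC cell had more than 4. EGLN3 showed this in the other line, where 5 LNCaP_FGC cells held 12.8% of its UMIs.

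The 2 sums moved together among LNCaP_C4-2B cells, and no such relation was seen among LNCaP_FGC cells. The hypoxia-induced sum had a mean of 6.12 UMIs and a variance over mean of 1.24 in LNCaP_FGC, against 18.4 and 7.84 in LNCaP_C4-2B. So near to counting error, any rho in LNCaP_FGC is held low, and its size cannot be set against that in LNCaP_C4-2B. Spearman's rho between the glycolysis and hypoxia-induced sums was 0.68 over 1829 cells in LNCaP_C4-2B and -0.08 over 1777 cells in LNCaP_FGC, as a description of cells that share a library and were thinned to one depth. Among LNCaP_C4-2B cells of one phase it was 0.75 in G1, 0.55 in S and 0.64 in G2M, and without BNIP3, the most abundant hypoxia-induced gene, it was 0.40. The closest pair in LNCaP_C4-2B was PGK1 with BNIP3 (0.71), followed by PGK1 with ENO1 (0.65), ENO1 with BNIP3 (0.62), PGK1 with LDHA (0.60) and LDHA with BNIP3 (0.59). In LNCaP_FGC the closest pair was GAPDH with LDHB (0.23). DDIT4, which had the largest ratio of the hypoxia-induced genes between the lines, had 0.16 against the sum of the others in LNCaP_C4-2B. PGK1 had 0.67 and ENO1 0.58 with the hypoxia-induced sum there. Within the group BNIP3L had 0.44, BNIP3 0.42, P4HA1 0.38 and VEGFA 0.31. ANKRD37, PDK1, EGLN1, EGLN3 and PDK3, each with a mean under 0.5 UMI in LNCaP_C4-2B, had 0.21, 0.20, 0.12, 0.12 and 0.10. HIF1A had 0.01 and SLC2A1 0.08 there. In LNCaP_C4-2B the hypoxia-induced sum had a rho of -0.15 with mitochondrial UMIs and -0.19 with UMIs per cell before thinning, and the glycolysis sum had -0.21 with the first and -0.15 with the second; the part of either in the relation was not tested.

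LDHB had a negative rho with several of the genes in LNCaP_C4-2B. Its rho with BNIP3 was -0.28 and with PGK1 -0.26, and with the sum of the hypoxia-induced genes -0.29. The share of LDHA among the lactate dehydrogenase UMIs of a cell had a median of 57.1% over 1829 LNCaP_C4-2B cells, with percentiles 10 and 90 of 31.3% and 80.1%, and a rho of 0.55 with the hypoxia-induced sum. In 1767 LNCaP_FGC cells with a UMI of either gene the median was 37.5%, with percentiles of 11.1% and 67.5% and a rho of 0.02.

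Outside the 35 genes, those whose level followed the hypoxia-induced sum most closely among 2618 genes with a mean of at least 0.5 UMI in LNCaP_C4-2B were C4orf3 (rho 0.47), FAM162A (0.45), NUPR1 (0.45), MIF (0.45), GDF15 (0.44), CKB (0.43), MKNK2 (0.42), NEAT1 (0.38), KLK3 (0.36) and MALAT1 (0.36). FAM162A is a mitochondrial HIF target and MIF a cytokine that hypoxia induces, NUPR1 and GDF15 are stress response genes, and KLK3 encodes prostate-specific antigen. The percentile 95 over those genes was 0.10. In LNCaP_FGC, where the hypoxia-induced sum varied little beyond counting error, the highest of 3363 genes had 0.15 (SAT1), a weak relation.

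The third comparison set the genes by phase of the cell cycle, called in each library from S and G2M gene scores. A gene was counted when its CPM in a phase departed from that in the other phases pooled by at least 0.32 on the log2 scale, and the share of all genes with at least 100 UMIs in the library that did so is given beside each count. In LNCaP_C4-2B, G1 (914 cells) had 7 of 31 genes higher, against 11.4% of all genes, and 2 lower, against 24.1%. S (375 cells) had 0 higher, against 13.2%, and 9 lower, against 14.1%. The genes lower in S were 4 of 20 glycolysis genes and 5 of 10 hypoxia-induced genes. G2M (561 cells) had 3 higher, against 18.3%, and 2 lower, against 8.81%. The genes higher in G1 of LNCaP_C4-2B were ALDOA, ALDOC, PGK1, ENO2, BNIP3, P4HA1 and ANKRD37. All 7 were among the 9 genes lower in S, beside BNIP3L and EGLN1, and S cells are part of the pool that G1 was set against.

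In LNCaP_FGC the counts, each out of 31 measured genes, lay near or under the shares of all genes. As pooled counts they do not set the 31 genes apart from other genes by phase, but the glycolysis and hypoxia-induced genes were unlike in G1. G1 (807 cells) had 3 genes higher, against 13.3% of all genes, and 8 lower, against 21.5%. Lower in G1 were 7 of 20 glycolysis genes and 1 of 10 hypoxia-induced genes, while 1 and 2 were higher. Their median log2 ratios in G1 were -0.20 and 0.02, against -0.04 over all genes, and this split was not tested. S (447 cells) had 2 higher, against 11.5%, and 1 lower, against 11.5%. G2M (596 cells) had 3 higher, against 16.4%, and 2 lower, against 10.6%. The genes lower in G1 were SLC2A1, HK2, PFKP, ENO2, LDHA, LDHB, SLC16A1 and PDK1, and SLC2A1, HK2 and SLC16A1 were higher in G2M.

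Some genes kept a phase pattern in both lines and others did not. ALDOC stood at 75.4 CPM in G1 and 35.3 CPM in the other phases of LNCaP_C4-2B, 2.14-fold higher, and at 39.2 CPM in G1 and 31.2 CPM in the other phases of LNCaP_FGC, 1.26-fold higher. PGK1 was 1.33-fold higher in G1 in LNCaP_C4-2B and BNIP3 1.34-fold, and their ratios in LNCaP_FGC were 0.970 and 1.08. DDIT4 was 1.48-fold higher in G1 of LNCaP_FGC, at 73.3 CPM against 49.5 CPM in its other phases, whereas its ratio in LNCaP_C4-2B was 0.876. EGLN3 was 1.66-fold higher in G2M of LNCaP_C4-2B, at 21.9 CPM against 13.2 CPM in its other phases. PDK1 was 1.49-fold higher in S of LNCaP_FGC, at 23.8 CPM against 16.0 CPM in its other phases, and had a ratio of 0.919 in LNCaP_C4-2B. These differences between the lines were not tested. When the lines were compared within one phase, the median of the glycolysis genes relative to the median gene was 1.23 in G1, 0.59 in S and 0.58 in G2M and that of the hypoxia-induced genes 2.05 in G1, 1.31 in S and 1.66 in G2M.

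**Figure D4:**
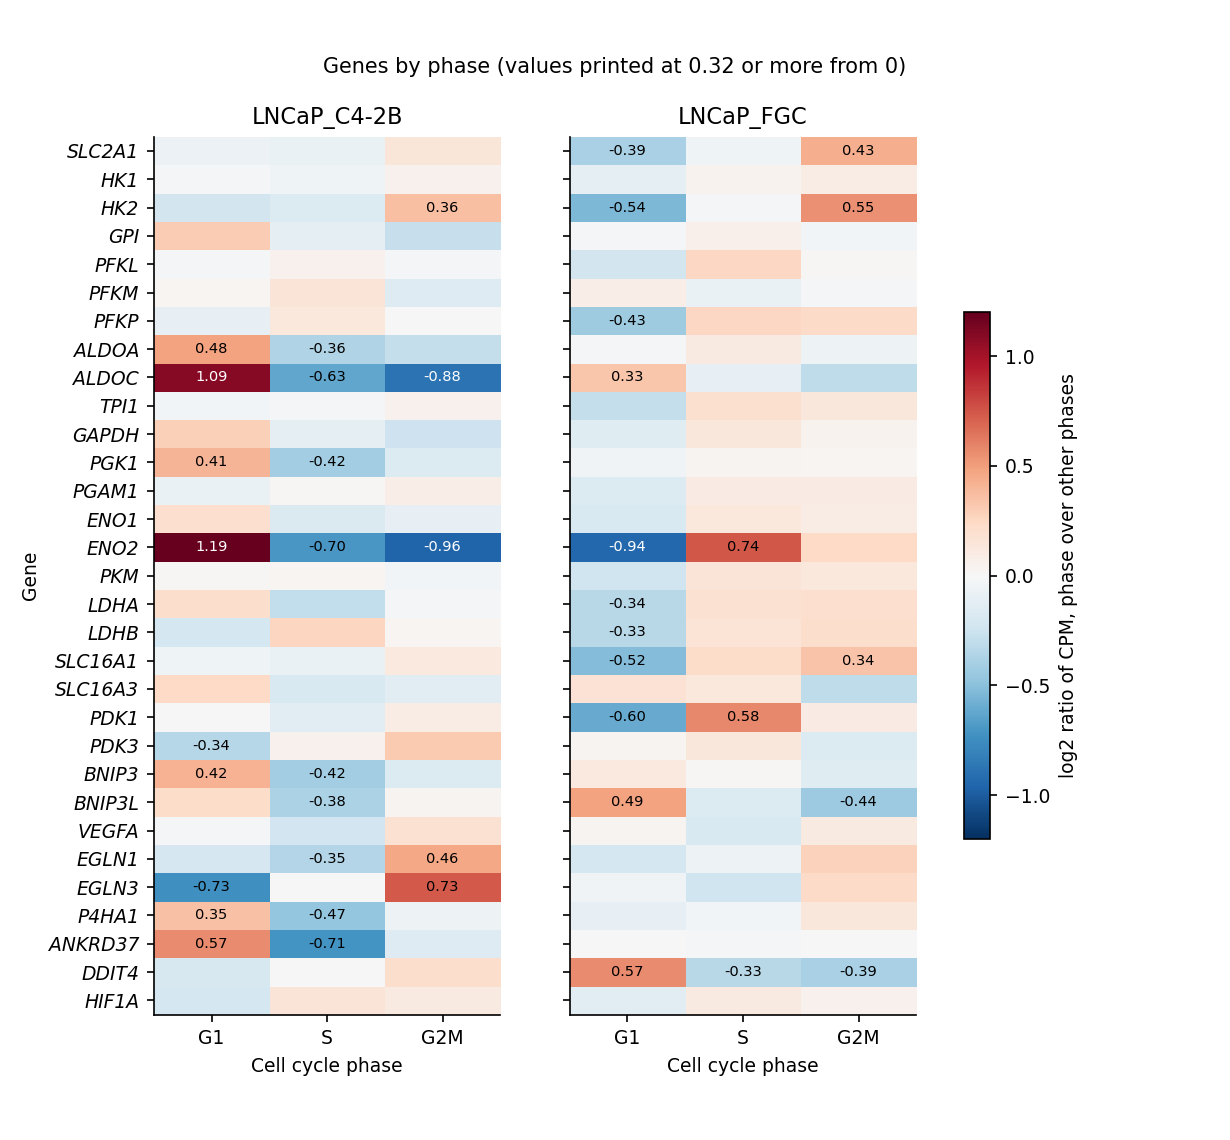
Log2 ratio of CPM in a phase over the other phases pooled (color) for the 31 measured genes (y axis), in G1, S and G2M cells (x axis) of LNCaP_C4-2B (left) and LNCaP_FGC (right), with the value printed where it is at least 0.32 from 0. ALDOC reads 1.09 in G1 of LNCaP_C4-2B and 0.33 in G1 of LNCaP_FGC, and DDIT4 reads 0.57 in G1 of LNCaP_FGC.

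ETV1 is expressed in part of the LNCaP_FGC cells, and the genes were last compared between 719 such cells with 0 ETV1 UMIs and 712 with at least 2 at 10000 UMIs per cell, with 346 cells of 1 UMI left out. Of 29 genes with at least 100 UMIs, 7 were higher by that same limit in cells without ETV1, against 14.9% of 9715 genes, and 1 was lower, against 6.2%. The median log2 ratio of the 29 genes was 0.05, against 0.07 over all genes. It was 0.11 for the glycolysis genes and -0.04 for the hypoxia-induced genes. The higher genes were HK1, ALDOA, ALDOC, LDHB, EGLN1, EGLN3 and HIF1A, all between 1.28-fold and 1.40-fold, and the lower gene was PDK3, 1.38-fold. The counting interval of EGLN3, 0.993 to 1.91, includes 1. HIF1A stood at 116 CPM in cells without ETV1 and 85.1 CPM in cells with it, 1.36-fold higher (1.23 to 1.52), and LDHB at 576 CPM in cells without ETV1 and 449 CPM in cells with it, 1.28-fold higher. The genes that separated the lines most did not separate these cells. PGK1 had a ratio of 1.10, LDHA of 0.958, BNIP3 of 0.961, VEGFA of 1.03 and DDIT4 of 1.02. SLC16A3 was the exception, at 8.62 CPM in cells without ETV1 and 2.11 CPM in cells with it, on 62 and 15 UMIs, a ratio of 4.09 (2.30 to 7.75).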

How the data were processed

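The authors counted UMIs per gene and cell with Cell Ranger 6.0 on GRCh38, per the submitters' processing notes and the paper's methods, filtered cells by gene and read number, hemoglobin, ribosomal and mitochondrial shares and doublet score, reduced both lines to an equal cell number and, with scuttle, to an equal mean depth. The deposited values are these raw counts, so their depth before thinning is unknown and the equal totals say nothing of RNA content. Doublets were not called again.

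UMIs were summed over the 1850 cells of each library and given as CPM. Ratios have exact conditional, levels exact Poisson and shares exact binomial (Clopper-Pearson) 95% intervals, which cover counting error only, and with 1 library per line no significance test was run. Phases were called with CellCycleScoring in Seurat 5.3.0 (R 4.3.3). TMM factors came from edgeR 4.0.16. All other steps used Python 3.11.15 with numpy 2.4.6, scipy 1.17.1 and pandas 2.3.3. Positions came from GENCODE release 44 and promoters from RefSeq. The 3′ tags were not divided by gene length. Known ratios between libraries were recovered from simulated counts that held counting error only, which does not test variation among cells or libraries. The 35 genes, the other lists and the thresholds were chosen with earlier results of these data known. From each other list up to 4 genes at either end were eligible to be named where the library with more of the gene had 20 CPM or more, and the 10 genes per library closest to the hypoxia-induced sum. No per-sample column was left unused. Alternatives covered scaling, count minimum, fold limit, depth, phase, mitochondrial share and the sums; the phase-wise correlations and a second random thinning were added after the data were seen.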

Additional observations from a re-analysis of the deposited data

Results flagged for a closer look

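ENO2, the neuronal enolase, differed in direction between the lines by phase. Its log2 ratio of CPM in G1 over the other phases was 1.19 in LNCaP_C4-2B and -0.94 in LNCaP_FGC, and in S over the other phases -0.70 in LNCaP_C4-2B and 0.74 in LNCaP_FGC. The counting intervals of each ratio leave out 1, but ENO2 rested on 239 UMIs in LNCaP_C4-2B and 117 in LNCaP_FGC, each line has 1 library, and the difference between the lines was not tested.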

How the results depend on the processing

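Under every alternative run, the medians of the glycolysis and hypoxia-induced genes stayed above 0 and the correlations of the sums kept their sign, while counts by phase and by ETV1 moved as given here. Of the 31 measured genes, 31 kept their call with TMM or median-of-ratios factors or another UMI minimum, and 22 on the plain CPM scale. Plain CPM gave 2 lower glycolysis genes and medians of 0.60 for glycolysis and 1.33 for hypoxia-induced genes, and CPM without ribosomal protein and mitochondrial genes 2, 0.75 and 1.48, since neither is centred on the median gene. With at least 1 UMI in each library 1 hypoxia-induced gene, ADM, was lower. The glycolysis median was 1.23 in G1, 0.59 in S and 0.58 in G2M cells, with 9 higher and 1 lower gene (SLC2A1) in G2M, and the hypoxia-induced median 2.05 in G1 and 1.31 in S. The cause was not tested. Of the phase counts at 1.5-fold, LNCaP_C4-2B kept 2 higher and 1 lower in G1, 3 lower in S and 1 higher in G2M, and LNCaP_FGC 0 higher and 2 lower in G1, 1 higher and 0 lower in S and 0 higher and 0 lower in G2M. A minimum of 10 UMIs gave 1 higher gene in S of LNCaP_C4-2B. Thinning gave 4 lower in G2M of LNCaP_C4-2B and 5 higher and 1 lower in G2M of LNCaP_FGC, where joint scoring gave 4 lower. For ETV1 no gene with at least 100 UMIs passed 1.5-fold (0 higher, 0 lower), and G1 cells gave 2 lower. The rho in LNCaP_C4-2B was 0.72 on counts divided by the cell total, 0.40 without BNIP3, 0.75 in G1 and 0.55 in S, and that in LNCaP_FGC was -0.020 in S. Leaving out cells with shared barcodes was not run, as there were 0. No paired analysis was possible because each line has 1 library and no test was run. Depth limits SLC2A3, CA9, ADM and EPAS1, each under 100 UMIs, and the equal depth of the libraries was set by the authors.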
